A study of Mus musculus with 9 samples.

Results

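BV2 cells, an immortalised murine microglial line, carried 40 genes of the NRF2, glutathione and thioredoxin defence that were followed here across doses of a silica-coated magnetic nanoparticle. The 40 genes were taken by symbol from the 40993 genes of the expression table. They cover 9 roles: the regulators, the quinone and biliverdin reductases, glutathione synthesis and recycling, the thioredoxins and their reductases, sulfiredoxin with the peroxiredoxins, the peroxidases, catalase and superoxide dismutases, the glutathione transferases, the glutaredoxins, and NADPH supply. All 40 were found in the table, each in a single row, and 37 had a mean of at least 1 FPKM (fragments per kilobase of transcript, scaled to library size) over the 9 libraries and were tested.

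The study compared 3 groups of 3 poly(A)-selected RNA-seq libraries: non-treated control cells, cells given 10 µg/ml MNPs@SiO2(RITC) (0.01 µg/µl), and cells given 100 µg/ml (0.1 µg/µl), both for 12 h. The particle has a cobalt ferrite core in a silica shell that holds the dye rhodamine B isothiocyanate. No sequenced group was given silica particles without the core, so in these libraries the part of the core and that of the shell cannot be told apart. The paper did give such particles to microglia for microscopy, and reported similar trends in cell shape. All libraries came from a single cell line, and the labels do not say whether replicates were separate cultures, so the p-values measure only the spread between these libraries, which may be technical.

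NRF2, the protein of Nfe2l2, is a transcription factor that KEAP1 holds in the cytoplasm and hands to a ubiquitin ligase. Oxidants and electrophiles modify KEAP1, NRF2 then accumulates, pairs with small MAF proteins and binds antioxidant response elements near genes for glutathione synthesis, thioredoxin reductase, sulfiredoxin and NADPH production. In microglia and macrophages the same enzymes remove the peroxides that phagocytosis and inflammatory signalling generate, and regulation of NRF2 is largely at the protein level, which RNA does not show.

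At 100 µg/ml, 3 of the 37 genes differed from control at an adjusted p under 0.05 (limma, Benjamini-Hochberg over 11161 genes), against 2.11% of all genes tested. Prdx6, a peroxiredoxin that also reduces phospholipid peroxides, fell to 0.674 of its control level, and Sod2, the mitochondrial superoxide dismutase, fell to 0.762. Txnrd1, the cytosolic thioredoxin reductase and a known NRF2 target, rose 1.23-fold. In all genes tested, 0.708% rose and 1.41% fell at that threshold. The genes followed were chosen with earlier results of these data known, so their counts cannot test for an excess. The 37 genes did not move one way: 17 had a log2 fold change above 0 and 20 below. Their median was -0.01 against 0.00 over all genes tested (-0.0016). For 35 of the 37 the 95% interval of the change lay within 1.5-fold in either direction. The share of all genes within that bound was not counted. These changes are in bulk RNA, in which fewer cells of a kind and less RNA per cell cannot be told apart.

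A further count used only the order of the libraries. In 6 genes (Keap1, Gclc, Gclm, Txnrd1, Srxn1 and Me1) every library at 100 µg/ml lay above every control library, and in 4 (Blvrb, Prdx6, Sod2 and G6pdx) every one lay below. The same held for 12.5% and 11.4% of all genes tested. At an unadjusted p under 0.05, 5 of the 37 were higher and 3 lower, against 9.67% and 9.69% of all genes. The higher count, 6 of 37, and the lower count, 4 of 37, make up shares near the background ones.

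**Figure D1:**
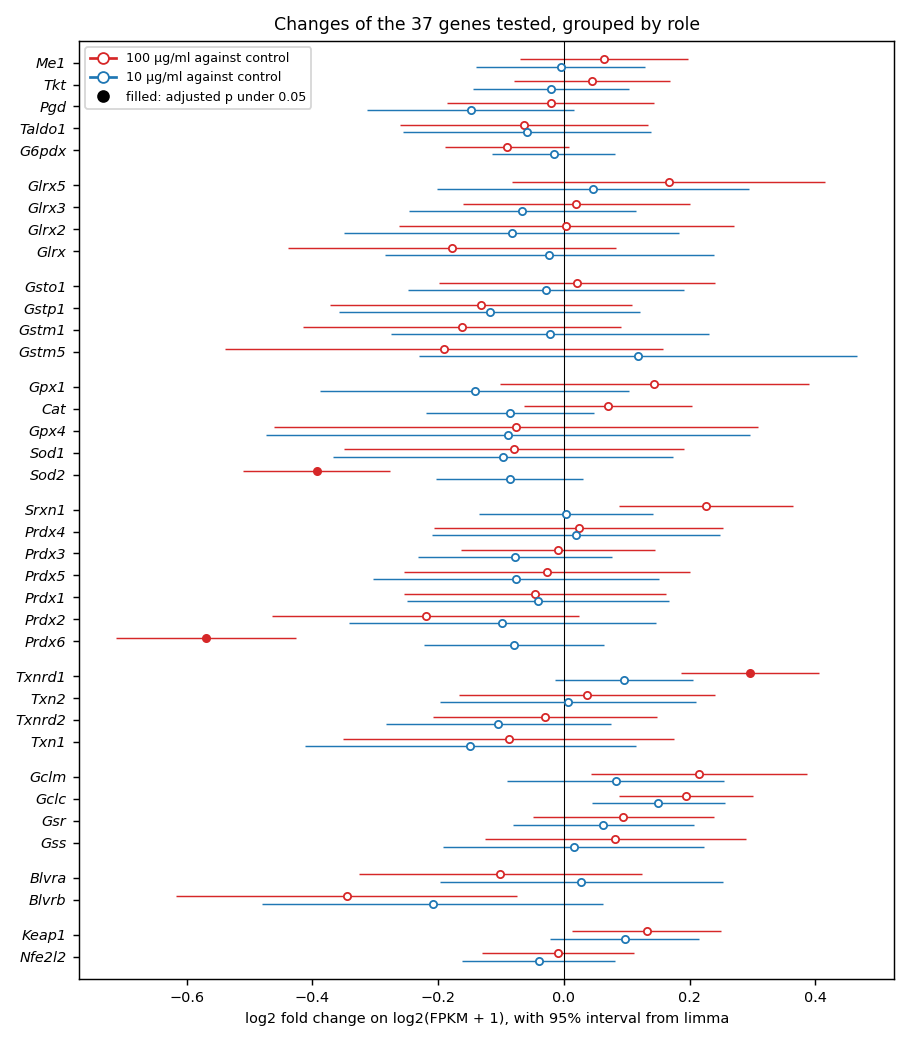
Log2 fold change of the 37 genes tested on the log2(FPKM + 1) scale, with the 95% interval from limma, for 100 µg/ml (red) and 10 µg/ml (blue) against control, grouped by role; filled points have an adjusted p under 0.05. Prdx6 and Sod2 lie to the left and Txnrd1 to the right with filled red points, while no blue point is filled.

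Promoter sequence was available for 36 of the 40 genes, as RefSeq windows on GRCm38.p6 from 250 bases before to 50 bases after each annotated start, 50 windows in all. There was none for Gsta4, Prdx6, Gsr or Gclc. The core letters of the antioxidant response element, TGACNNNGC, occurred on either strand in 12 of the 50 windows (24%) and in 12.4% of all 32851 windows. The 12 genes were Nfe2l2, Blvra, Srxn1, Gstm5, Gclm, Prdx1, Pgd, Mgst1, Me1, Txnrd1, Sod1 and G6pdx. The related letters TGACTCA, which AP-1 factors and NRF2 dimers can both bind, occurred in 7 of the 50 windows (14%), in 6 genes, and in 5.2% of all windows. Both motifs were present in 4 of the windows, and in Prdx1 and Me1 they share bases, since TGACTCAGC holds both. Among the 11 tested genes with TGACNNNGC, 4 lay above 0 in log2 fold change at the higher dose and 7 below, and Txnrd1 was the 1 that passed the test. The 23 tested genes with a window but no match were split 11 above and 12 below. A match is a description of the letters, and binding was not measured.

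The following stretches are shown for genes with the motif that the results turn on: Txnrd1, which passed the test, Srxn1 and Gclm, whose libraries were separated from control, Prdx1, 1 of the 2 most abundant members, and Nfe2l2 itself. Each reads 5′ to 3′ on the strand of its gene and lies wholly before the annotated start. Capitals mark TGACTCA in Srxn1 and TGACNNNGC in the others, read on the opposite strand except in Nfe2l2. The positions on GRCm38.p6 are chr10:82859086-82859145 (+) for Txnrd1, chr2:152105414-152105493 (+) for Srxn1, chr3:122245397-122245456 (+) for Gclm, chr4:116685439-116685498 (+) for Prdx1 and chr2:75704854-75704913 (-) for Nfe2l2.
Txnrd1: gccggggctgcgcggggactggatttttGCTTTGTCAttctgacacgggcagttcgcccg
Srxn1: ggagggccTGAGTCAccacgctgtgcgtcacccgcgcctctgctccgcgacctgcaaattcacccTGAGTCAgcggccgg
Gclm: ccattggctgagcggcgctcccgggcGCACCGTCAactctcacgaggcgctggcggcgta
Prdx1: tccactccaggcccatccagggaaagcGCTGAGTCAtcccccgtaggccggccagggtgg
Nfe2l2: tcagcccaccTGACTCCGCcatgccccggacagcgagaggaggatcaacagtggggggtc

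In Srxn1 the pair of TGACTCA matches lay 96 to 102 and 39 to 45 bases before the start. The Txnrd1 match lay 84 to 92 bases before it, that of Gclm 126 to 134, that of Prdx1 125 to 133 and that of Nfe2l2 232 to 240. The Srxn1 window holds TGACNNNGC only downstream of the start.

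Across libraries, summed FPKM ranged from 473547 to 522812, and spacing of the low values put the depth at about 13300000 to 16200000 fragments. Markers checked the labelled cell: 8 of 10 microglial markers had a mean of at least 1 FPKM. Tmem119, among the 8, had a mean of only 2.15 FPKM, and Cx3cr1 and P2ry12 were near 0. Summed levels of the 10 were 1001 to 1186 in control, 1022 to 1102 at 10 µg/ml and 964 to 1110 at 100 µg/ml. Cd68 and Tyrobp carry most of that sum. At 100 µg/ml 3 of the 8 lay wholly below control, against 11.4% of all genes tested. These were Aif1 (2.76 to 4.92 against 6.22 to 7.09 FPKM), Csf1r (116 to 128 against 138 to 145) and Ptprc (59.9 to 72.97 against 73.3 to 74.2). Aif1 also lay wholly below control at 10 µg/ml (4.09 to 5.65 FPKM), as did 4.61% of all genes tested. The part of these markers in the other results was not tested. None of the 4 astrocyte or 4 oligodendrocyte markers reached a mean of 1 FPKM over the 9 libraries, and the 3 neuronal markers found were listed at 0 in every library. Replicate 1 at 100 µg/ml stood apart by transcript length: against the other 2 libraries of its group its median log2 difference was 0.30 for genes with transcripts under 1000 nt, 0.15 from 1000 to 3000 nt and -0.12 at 3000 nt or more. It was the highest of the 9 libraries for 22 of the 37 genes (59.5%), against 26.8% of all genes tested. Values without it are given beside the genes described in full that it moved by over 1.5 times, and counts, medians and calls without it are given further below. Why it stood apart was not tested.

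The label of the gene set names Nqo1 and Srxn1 as its markers, and only Srxn1 was abundant. Nqo1 (ENSMUSG00000003849, chromosome 8 from 107388225 to 107403206), the NRF2 target most often used as a readout, was at 0.113, 0.155 and 0.202 FPKM in the control libraries, 0.0504, 0.102 and 0.216 at 10 µg/ml, and 0.230, 0.173 and 0.310 at 100 µg/ml. At these depths such values stand for about 1 to 6 fragments per library, the groups overlap, and Nqo1 fell below the filter for testing. Gsta4 (listed at 0 in 8 of 9 libraries) and Mgst1 (0.124 to 1.10 FPKM) were also too low to test.

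Levels per length in control cells spanned a wide range. Prdx1 stood at 458 ± 14.3 FPKM (SD, n = 3) and Pgd at 412 ± 36.2, ahead of Tkt at 275 ± 2.65 and Txn1 at 231 ± 25.5. The ranges of Prdx1 and Pgd touch, since the highest Pgd library (445 FPKM) exceeded the lowest Prdx1 library (444 FPKM), so their order was not resolved. At the other end of the tested genes, Gstm5 was at 2.22 ± 0.57 FPKM and Keap1 at 11.1 ± 0.27. The 40 genes together held 0.764% to 0.825% of summed FPKM in a library, and the shares at 100 µg/ml (0.825%, 0.764% and 0.795%) overlapped those of control (0.803%, 0.764% and 0.811%).

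**Figure D2:**
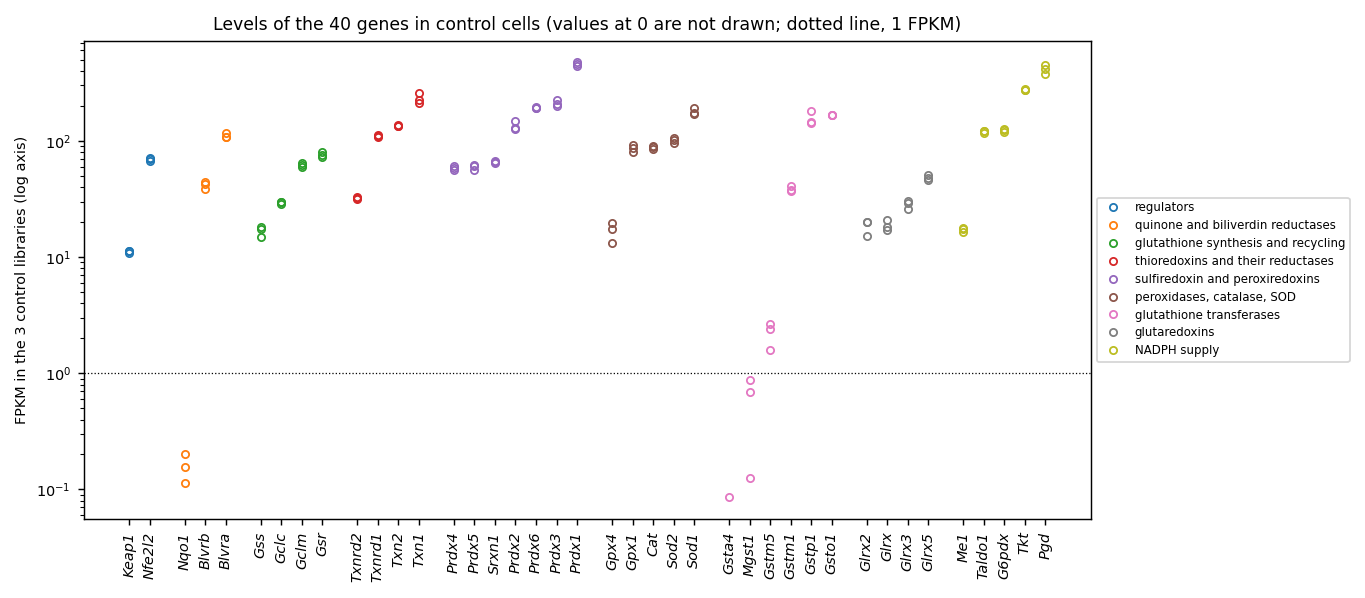
FPKM of the 40 genes in the 3 control libraries (log axis), ordered by level within each role; points are single libraries, values at 0 are not drawn, and the dotted line marks 1 FPKM. Prdx1 and Pgd are at the top, and Nqo1, Gsta4 and Mgst1 lie below the line.

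Of the regulators, the transcription factor showed no separation between groups. Its inhibitor lay slightly above control in every treated library but did not pass the test. Nfe2l2 (ENSMUSG00000015839, chromosome 2 from 75675513 to 75704641) was at 71.7, 67.1 and 69.8 FPKM in control, 64.7, 68.9 and 69.3 at 10 µg/ml, and 70.6, 65.7 and 71.0 at 100 µg/ml. The 3 ranges overlap almost wholly. The change in Nfe2l2 between control and the higher dose was -0.01 ± 0.05 (log2, SE), with a 95% interval of -0.13 to 0.11 (adjusted p = 0.944, limma), and -0.03 without replicate 1 at that dose.

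Keap1 (ENSMUSG00000003308, chromosome 9 from 21229730 to 21239332) was at 11.3, 11.2 and 10.8 FPKM in control, 11.9, 12.1 and 11.8 at 10 µg/ml, and 12.6, 11.9 and 12.3 at 100 µg/ml. All 6 treated libraries lay above all 3 control libraries. Keap1 differed from control by 0.13 ± 0.05 on the log2 scale at the higher dose and by 0.10 ± 0.05 at the lower, and neither passed the test over all genes (adjusted p = 0.215 and 1.00, limma).

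The biliverdin reductases turn the biliverdin that haem oxygenase makes into the antioxidant bilirubin. Blvrb (ENSMUSG00000040466, chromosome 7 from 27447978 to 27466144) was at 42.6, 44.0 and 38.7 FPKM in control, 30.6, 39.3 and 38.6 at 10 µg/ml, and 36.3, 34.1 and 28.0 at 100 µg/ml. Every library at 100 µg/ml was below every control library, and the spread within the treated groups was wide. Its log2 fold change of -0.35 ± 0.12 did not pass the test (adjusted p = 0.164, and 0.0989 without replicate 1 at 100 µg/ml).

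Blvra (ENSMUSG00000001999, chromosome 2 from 127070665 to 127097084) was at 118, 109 and 107 FPKM in control, 113, 102 and 127 at 10 µg/ml, and 117, 99.8 and 94.97 at 100 µg/ml. Its groups overlap, with -0.10 ± 0.10 on the log2 scale between control and the higher dose (adjusted p = 0.625, limma) and -0.19 without replicate 1 there.

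Glutathione synthesis and recycling was the role in which all 4 members lay above control on average at both doses, but none passed the test at either. At 10 µg/ml the 5 peroxidases, catalase and superoxide dismutases and the 5 NADPH genes all lay below control on average. Gclc, the catalytic subunit of glutamate-cysteine ligase, which sets the rate of glutathione synthesis (ENSMUSG00000032350, chromosome 9 from 77754535 to 77794485), was at 28.5, 29.8 and 29.8 FPKM in control, 31.9, 32.5 and 33.7 at 10 µg/ml, and 34.2, 33.3 and 33.8 at 100 µg/ml. Every treated library exceeded every control library, and the doses overlapped each other. Gclc differed from control by 0.19 ± 0.05 on the log2 scale at the higher dose, 1.14-fold (adjusted p = 0.0723, limma), and at the lower by 0.15 ± 0.05 (adjusted p = 1.00). Gclc passed at 100 µg/ml with no filter on low genes (adjusted p = 0.0478) and after GC content and transcript length were regressed out, a step added once the data had been seen (adjusted p = 0.0188).

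Gclm, the modifier subunit of the same ligase (ENSMUSG00000028124, chromosome 3 from 122245557 to 122269984), was at 61.9, 59.8 and 64.7 FPKM in control, 61.5, 66.4 and 69.9 at 10 µg/ml, and 79.7, 70.9 and 66.8 at 100 µg/ml. The highest of the 9 values is from replicate 1 at 100 µg/ml. For Gclm the log2 fold change at the higher dose was 0.21 ± 0.08 (adjusted p = 0.17, limma) and 0.15 without that library.

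Gsr, glutathione reductase, which returns oxidised glutathione to its reduced form with NADPH (ENSMUSG00000031584, chromosome 8 from 33652523 to 33698163), was at 76.2, 73.3 and 80.2 FPKM in control, 74.6, 80.6 and 84.9 at 10 µg/ml, and 82.3, 85.2 and 77.9 at 100 µg/ml. These groups overlap, with a higher-dose log2 fold change of 0.09 ± 0.06 (adjusted p = 0.463). Gss, glutathione synthetase, which completes the tripeptide, had 0.08 ± 0.09, and 0.01 without replicate 1 at 100 µg/ml.

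The thioredoxin system reduces protein disulfides, with electrons that thioredoxin reductases take from NADPH. Txnrd1 (ENSMUSG00000020250, chromosome 10 from 82859206 to 82897724) was at 113, 109 and 111 FPKM in control, 113, 120 and 123 at 10 µg/ml, and 135, 135 and 139 at 100 µg/ml. All 3 libraries at 100 µg/ml lay above the other 6, and the group at 10 µg/ml overlapped control. For Txnrd1 the log2 fold change at the higher dose was 0.30 ± 0.05, with a 95% interval of 0.19 to 0.41 (adjusted p = 0.0197, limma), and at 10 µg/ml it was 0.10 ± 0.05 (adjusted p = 1.00). Its size hardly moved when any 1 library was left out (0.28 to 0.31), but the call was lost without control replicate 1 (adjusted p = 0.0737), 2 (0.102) or 3 (0.0656) or without replicate 3 at 100 µg/ml (0.0773), and in a fit of the 6 libraries compared alone (0.0760).

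The other 3 genes of the system did not pass. Txn1, the cytosolic thioredoxin (ENSMUSG00000028367, chromosome 4 from 57943373 to 57956411), was at 260, 225 and 210 FPKM in control, 211, 201 and 212 at 10 µg/ml, and 260, 193 and 202 at 100 µg/ml. Replicate 1 at 100 µg/ml stands well above the other 2 of its group, and the log2 fold change of -0.09 ± 0.12 (adjusted p = 0.729) becomes -0.22 without it (adjusted p = 0.163). Mitochondrial Txn2 and Txnrd2 had log2 fold changes of 0.04 ± 0.09 and -0.03 ± 0.08, which were -0.08 and -0.10 without that library. The FPKM ratio of Txnrd1 to Txnrd2, cytosolic over mitochondrial reductase, was 3.48, 3.44 and 3.41 in control, 3.94, 4.19 and 3.78 at 10 µg/ml, and 3.87, 4.35 and 4.82 at 100 µg/ml. Both treated groups lay wholly above control in this ratio (two-sided exact permutation p = 0.1 each, the smallest that 3 against 3 allows). None of the 14 ratios and shares examined could therefore pass 0.05, adjusted or not.

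**Figure D3:**
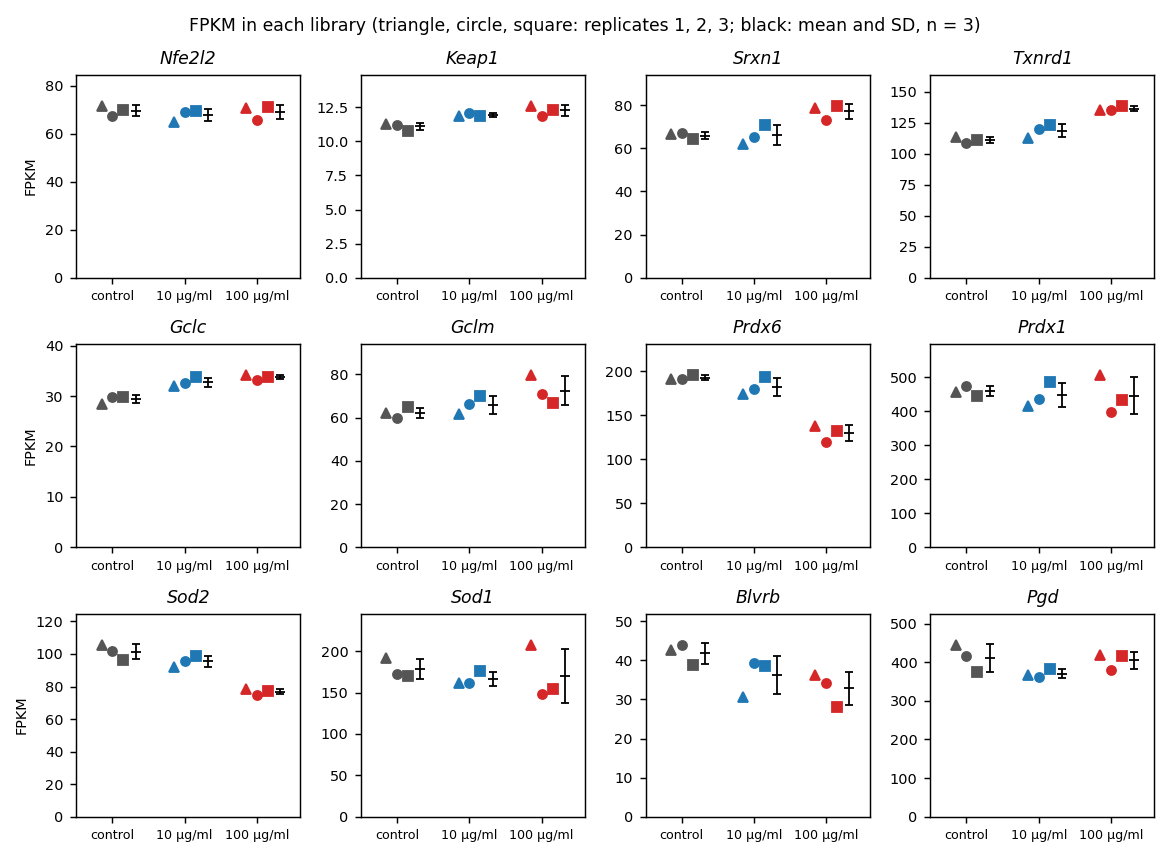
FPKM of 12 of the genes in each library, in 3 groups on axes that start at 0; triangle, circle and square are replicates 1, 2 and 3, and the black bar gives the mean and SD (n = 3). Prdx6 and Sod2 at 100 µg/ml lie below the other 6 libraries and Txnrd1 above them, while Nfe2l2 overlaps in all groups.

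Srxn1, sulfiredoxin, restores peroxiredoxins that peroxide has over-oxidised, and is an NRF2 target. Srxn1 (ENSMUSG00000032802, chromosome 2 from 152105516 to 152111376) was at 66.4, 66.9 and 64.1 FPKM in control, 62.0, 65.3 and 70.9 at 10 µg/ml, and 78.5, 73.1 and 79.8 at 100 µg/ml. All 3 libraries at 100 µg/ml lay above the other 6. Its log2 fold change of 0.23 ± 0.06 (1.17-fold, 95% interval 0.09 to 0.36) did not pass over all genes (adjusted p = 0.0963, limma), did so once GC content and length were regressed out (adjusted p = 0.0362), and at 10 µg/ml was 0.00 ± 0.06.

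Among the 6 peroxiredoxins, which reduce peroxides through a reactive cysteine, Prdx6 was the only one to pass. Prdx6, the single-cysteine member, which takes its electrons from glutathione rather than thioredoxin (ENSMUSG00000026701, chromosome 1 from 161240112 to 161251219), was at 191, 191 and 196 FPKM in control, 174, 180 and 193 at 10 µg/ml, and 137, 120 and 132 at 100 µg/ml. The libraries at 100 µg/ml lie far below the other 6, with no value between 137 and 174. Its log2 fold change was -0.57 ± 0.06 (95% interval -0.71 to -0.43, adjusted p = 0.00577, limma) and kept its call in all 9 fits that left out 1 library (adjusted p 0.00542 to 0.0454). At 10 µg/ml it was -0.08 ± 0.06 (adjusted p = 1.00). Its named copies Prdx6b and Prdx6-ps2 were listed at no more than 0.0645 and at 0 FPKM.

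Prdx1 (ENSMUSG00000028691, chromosome 4 from 116685544 to 116700822), the major cytosolic member and an NRF2 target, was at 457, 473 and 444 FPKM in control, 416, 437 and 485 at 10 µg/ml, and 506, 398 and 433 at 100 µg/ml. Its groups overlap, and the log2 fold change of -0.05 ± 0.09 had an adjusted p of 0.825 (limma) and was -0.14 without replicate 1 at 100 µg/ml. The other 4 members, Prdx2 to Prdx5, had log2 fold changes from -0.22 (Prdx2, adjusted p = 0.308) to 0.02 (Prdx4), and all 4 overlapped control. Without the same library they ran from -0.33 (Prdx2, adjusted p = 0.0733) to -0.07 (Prdx3).

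The part of Prdx6 in the peroxiredoxin transcripts was smaller at 100 µg/ml. Its share of summed Prdx1 to Prdx6 FPKM was 16.7%, 17.1% and 18.1% in control, 16.9%, 17.4% and 17.0% at 10 µg/ml, and 12.0%, 12.8% and 13.5% at 100 µg/ml. The group at 100 µg/ml lies wholly below both others. Mean shares were 17.3% ± 0.71 in control and 12.8% ± 0.75 at 100 µg/ml (SD, n = 3; two-sided exact permutation p = 0.1, the smallest possible). The shares of Prdx1 and Prdx3 were higher at 100 µg/ml (43.7% against 41.2%, and 20.6% against 18.9%), which a lower Prdx6 share gives in part by construction. The FPKM ratio of Srxn1 to Prdx1 was 0.145, 0.142 and 0.144 in control, 0.149, 0.1497 and 0.146 at 10 µg/ml, and 0.155, 0.184 and 0.184 at 100 µg/ml, with no overlap between the groups (exact permutation p = 0.1 for each dose against control).

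**Figure D4:**
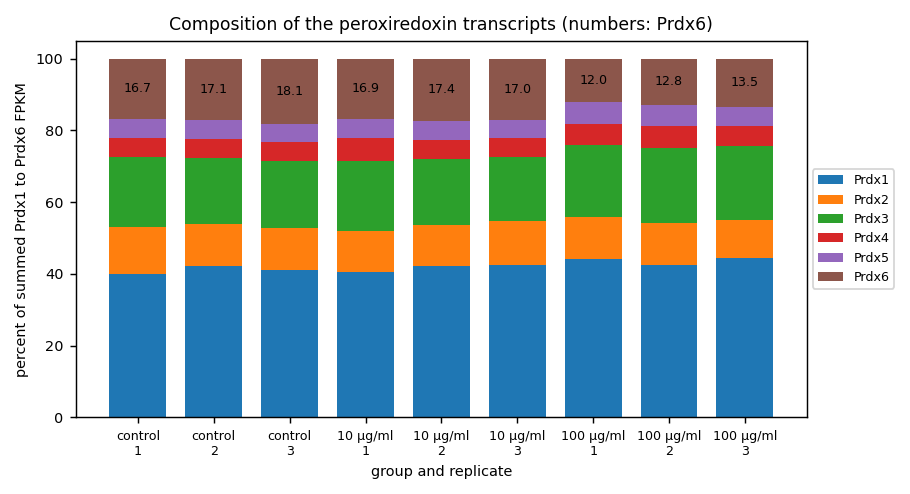
Share of each peroxiredoxin in summed Prdx1 to Prdx6 FPKM, in percent, for the 9 libraries, with the Prdx6 share printed. Prdx6 makes up 16.7% to 18.1% in control and 12.0% to 13.5% at 100 µg/ml.

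Of the peroxidases, catalase and superoxide dismutases, Sod2 alone passed. Sod2, which turns superoxide into hydrogen peroxide in the mitochondrial matrix and is also known as an NF-kB target (ENSMUSG00000006818, chromosome 17 from 13007839 to 13018119), was at 106, 102 and 96.5 FPKM in control, 92.2, 95.5 and 98.7 at 10 µg/ml, and 78.5, 75.1 and 77.4 at 100 µg/ml. The libraries at 100 µg/ml are tight and lie below the other 6. On the log2 scale Sod2 fell by 0.39 ± 0.05, with a 95% interval of -0.51 to -0.28 (adjusted p = 0.00962, limma), and its change was -0.09 ± 0.05 at 10 µg/ml (adjusted p = 1.00). The call was lost without control replicate 1 (adjusted p = 0.0505) or 2 (0.0572) and with the 6 libraries alone (0.0692).

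Sod1, the cytosolic copper-zinc enzyme (ENSMUSG00000022982, chromosome 16 from 90220742 to 90226322), was at 192, 172 and 170 FPKM in control, 162, 161 and 176 at 10 µg/ml, and 208, 148 and 154 at 100 µg/ml. Replicate 1 at 100 µg/ml is the highest of all 9 and the other 2 of its group are the lowest, so the log2 fold change was -0.08 ± 0.12 with it and -0.23 without it (adjusted p = 0.762 and 0.0894). The FPKM ratio of Sod2 to Sod1 was 0.551, 0.592 and 0.567 in control, and 0.377, 0.506 and 0.501 at 100 µg/ml, with no overlap (exact permutation p = 0.1). Catalase (Cat) and the glutathione peroxidases Gpx1 and Gpx4 had log2 fold changes of 0.07 ± 0.06, 0.14 ± 0.11 and -0.08 ± 0.17, none past the test, and without replicate 1 they were 0.04, 0.02 and -0.25.

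The glutathione transferases conjugate glutathione to electrophiles, and 4 of the 6 were high enough to test, none passing. Gsto1, the omega-class enzyme (ENSMUSG00000025068, chromosome 19 from 47854970 to 47864790), was at 169, 166 and 166 FPKM in control, 159, 158 and 175 at 10 µg/ml, and 200, 150 and 161 at 100 µg/ml. Its log2 fold change of 0.02 ± 0.10 (adjusted p = 0.928) rests on replicate 1 and is -0.10 without it. Gstm1 (ENSMUSG00000058135, chromosome 3 from 108012255 to 108017973) was at 41.3, 37.8 and 36.96 FPKM in control, 36.8, 36.5 and 40.9 at 10 µg/ml, and 41.5, 29.8 and 32.9 at 100 µg/ml.

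Gstm1 thus ranged across the control values at 100 µg/ml, with a log2 fold change of -0.16 ± 0.11 (adjusted p = 0.473) that was -0.29 without replicate 1 (adjusted p = 0.0689). Gstp1 and Gstm5 had -0.13 ± 0.11 and -0.19 ± 0.15, and -0.23 and -0.26 without it. Reads of the closely related mu-class genes may have been divided among them, and Gstp2, a near copy of Gstp1, was listed at 0.

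The glutaredoxins use glutathione to reduce mixed disulfides, and the mitochondrial Glrx5 serves iron-sulfur cluster assembly. Glrx5 (ENSMUSG00000021102, chromosome 12 from 105032689 to 105040910) was at 45.9, 47.7 and 50.9 FPKM in control, 46.0, 48.5 and 55.1 at 10 µg/ml, and 64.5, 49.9 and 49.3 at 100 µg/ml. A single library, replicate 1 at 100 µg/ml, stands above the rest, and the log2 fold change of 0.17 ± 0.11 (adjusted p = 0.452) is 0.04 without it. Glrx (ENSMUSG00000021591, chromosome 13 from 75839868 to 75850151) was at 20.9, 17.2 and 18.04 FPKM in control, 17.97, 19.4 and 17.7 at 10 µg/ml, and 18.3, 13.5 and 17.7 at 100 µg/ml.

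The groups of Glrx overlap, with a log2 fold change of -0.18 ± 0.12 (adjusted p = 0.442). Glrx2 and Glrx3 had 0.00 ± 0.12 and 0.02 ± 0.08.

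NADPH feeds both the glutathione and the thioredoxin arm, and comes largely from the pentose phosphate pathway and malic enzyme. None of the 5 genes passed at either dose. G6pdx, the first and rate-setting enzyme of that pathway (ENSMUSG00000031400, chromosome X from 74409483 to 74429194), was at 126, 124 and 120 FPKM in control, 122, 123 and 120 at 10 µg/ml, and 115, 119 and 113 at 100 µg/ml. Every library at 100 µg/ml was below the other 6 by a small margin, with a log2 fold change of -0.09 ± 0.04 (adjusted p = 0.301, limma).

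Pgd, 6-phosphogluconate dehydrogenase, the other NADPH-producing step (ENSMUSG00000028961, chromosome 4 from 149149991 to 149166771), was at 445, 416 and 373 FPKM in control, 366, 362 and 383 at 10 µg/ml, and 419, 380 and 415 at 100 µg/ml. Control and 100 µg/ml overlap, with a log2 fold change of -0.02 ± 0.07 (adjusted p = 0.906, limma) that was -0.05 without replicate 1 at 100 µg/ml. Tkt and Taldo1, which recycle the sugars, had 0.04 ± 0.05 and -0.06 ± 0.09, or -0.01 and -0.17 without that library, and Me1, malic enzyme, had 0.06 ± 0.06. The Me1 libraries at 100 µg/ml (18.5, 17.9 and 17.69 FPKM) lay just above those of control (17.65, 16.6 and 17.4).

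At 10 µg/ml none of the 37 genes passed, as in all genes tested (0.0%, 0 of 11161, limma). At an unadjusted p under 0.05 there was 1, Gclc, which was higher, against 1.74% of all genes higher and 3.28% either way. Only Keap1 and Gclc had all 3 libraries at 10 µg/ml above all controls, and no gene had them all below, against 6.14% and 4.61% of all genes. Of the 37, 12 had a log2 fold change above 0 and 25 below, with a median of -0.04 against 0.00 over all genes tested (0.00015). The 95% interval of all 37 lay within 1.5-fold in either direction, and the share of all genes within that bound was not counted. Both doses were set against the same control libraries.

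Between the doses, Prdx6 and Sod2 were lower at 100 than at 10 µg/ml, and 0.636% of all genes were lower and 0.851% differed either way. At an unadjusted p under 0.05, 4 of the 37 were higher and 2 lower, against 6.49% and 7.8% of all genes. For Prdx6 the log2 fold change was -0.49 ± 0.06 (adjusted p = 0.0141) and for Sod2 -0.31 ± 0.05 (adjusted p = 0.0389, limma). Neither passed in a fit of the 6 libraries compared alone (adjusted p = 0.100 and 0.126). Txnrd1 (0.20 ± 0.05, adjusted p = 0.112) and Srxn1 (0.22 ± 0.06, adjusted p = 0.153) were higher in every library at 100 than at 10 µg/ml and did not pass. Once GC content and length were regressed out the called genes were others: Prdx6 (adjusted p = 0.00302), Txnrd1 (0.0299) and Srxn1 (0.0497) passed and Sod2 did not (0.0773), beside 3.29% of the 11076 genes. The call of Prdx6 was lost without any of the 3 libraries at 10 µg/ml (adjusted p = 0.0655, 0.0737 and 0.0652 for replicates 1, 2 and 3) or replicate 3 at 100 µg/ml (0.0762). That of Sod2 was lost in 8 of the 9 fits that left out 1 library, with an adjusted p up to 0.139. Gpx1 and Cat also lay above 10 µg/ml in all 3 libraries, and Gstm5 and G6pdx below, so that 4 genes were separated upward and 4 downward, against 9.37% and 9.99% of all genes.

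The sign of many small changes depended on replicate 1 at 100 µg/ml. Without it, 12 of the 37 genes had a log2 fold change above 0 against control and 25 below, with a median of -0.08. Between the doses the median went from 0.03 to -0.07. Over all genes tested the medians without that library were 0.0006 against control and -0.0021 between the doses. The size of the 3 changes that passed barely moved: Prdx6 was at -0.61, Sod2 at -0.41 and Txnrd1 at 0.30, each still past the test (adjusted p = 0.00542, 0.00912 and 0.0184, limma), when 4.83% of all genes passed. In the 5 tested members with transcripts under 1000 nt, that library differed from the other 2 of its group by a median log2 difference of 0.30. In the 23 members of 1000 to 3000 nt it differed by 0.23, and in the 9 of 3000 nt or more by 0.06. For all genes tested in these classes the values were 0.30, 0.15 and -0.12. With each library corrected for GC content and transcript length, 5 genes passed (Prdx6, Sod2, Txnrd1, Srxn1 and Gclc), beside 8.09% of the 11076 genes that could be corrected.

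**Figure D5:**
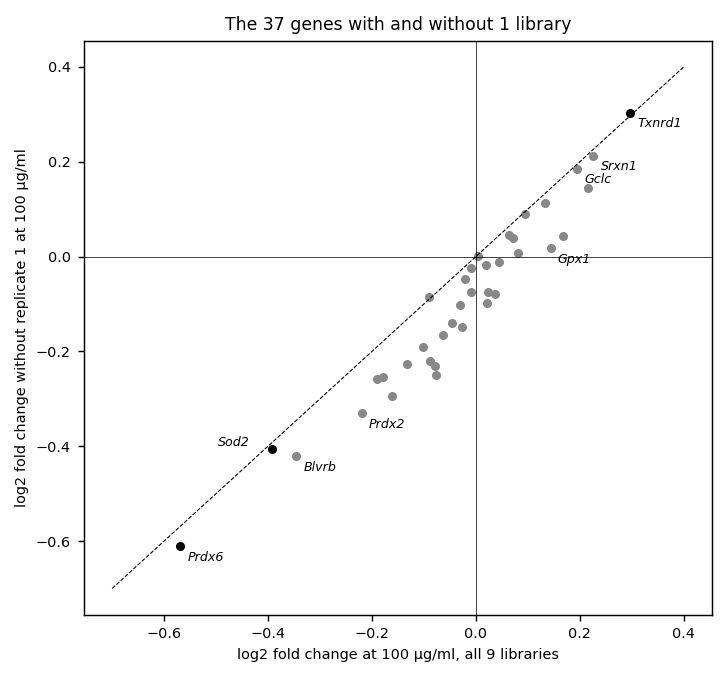
Log2 fold change at 100 µg/ml against control of the 37 genes with all 9 libraries (horizontal) and without replicate 1 at 100 µg/ml (vertical); black points passed the test with all libraries and the dashed line marks equal values. Most grey points lie below the line, while Prdx6, Sod2 and Txnrd1 lie close to it.

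A list of 80 further genes of these pathways (NRF2 partners and other targets, glutathione turnover, other transferases and peroxidases, thioredoxin-like proteins, sestrins and NADPH enzymes) was read from the same fit. Of these, 56 were tested, and at 100 µg/ml 1 rose and 3 fell, beside 0.708% and 1.41% of all genes tested. The list was chosen with earlier results of these data known, so these counts cannot test for an excess. Txnip, which binds and inhibits thioredoxin and also curbs glucose uptake, went from 93.8, 97.5 and 89.5 FPKM in control and 99.9, 115 and 109 at 10 µg/ml to 157, 158 and 149 at 100 µg/ml. Its groups are fully separated in order of dose, and its log2 fold change at the higher dose was 0.72 ± 0.06 (adjusted p = 0.00224, limma).

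Of the sestrins, stress-induced proteins that restrain mTORC1, Sesn1 and Sesn2 were lower at the higher dose, and Sesn3 was listed at 0 in every library. Sesn2 was at 9.78, 11.9 and 12.2 FPKM in control, 12.7, 11.4 and 11.8 at 10 µg/ml, and 6.86, 7.44 and 6.72 at 100 µg/ml, with all 3 below the other 6. Sesn1 was at 14.8, 13.7 and 14.7 FPKM in control, 12.8, 13.1 and 13.1 at 10 µg/ml, and 11.1, 10.3 and 9.98 at 100 µg/ml, in groups that do not overlap. Their log2 fold changes were -0.62 ± 0.09 and -0.43 ± 0.06 (adjusted p = 0.0142 and 0.0123, limma). Mthfd2, a mitochondrial folate enzyme that yields NADPH or NADH, was at 89.8, 91.4 and 91.0 FPKM in control and 71.5, 64.4 and 64.9 at 100 µg/ml.

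The log2 fold change of Mthfd2 was -0.43 ± 0.05 (adjusted p = 0.00962, limma). The highest adjusted p in the 9 fits without 1 library was 0.0184 for Txnip, 0.0627 for Sesn1 (without control replicate 1), 0.0807 for Sesn2 (without control replicate 2) and 0.0561 for Mthfd2 (without control replicate 2). At 10 µg/ml none of the 56 passed.

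Both of the best-known NRF2 targets on that list fell short of the test. Hmox1, haem oxygenase 1, was at 312, 317 and 300 FPKM in control, 299, 293 and 329 at 10 µg/ml, and 366, 300 and 331 at 100 µg/ml, with overlapping groups and a log2 fold change of 0.10 ± 0.08 (adjusted p = 0.539) that was 0.03 without replicate 1 at 100 µg/ml. Slc7a11, the cystine importer that feeds glutathione synthesis, was at 12.6, 12.8 and 14.5 FPKM in control, 13.8, 12.1 and 13.6 at 10 µg/ml, and 7.90, 10.2 and 13.0 at 100 µg/ml. Its 3 libraries at 100 µg/ml are spread widely, and the log2 fold change of -0.35 ± 0.15 had an adjusted p of 0.235 (limma) and was -0.19 without replicate 1 at that dose.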

How the data were processed

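FPKM values were deposited. To make them the authors filtered low-quality reads, used TopHat as aligner and ran Cufflinks 2.1.1 against Ensembl release 77, with corrections for multi-mapped reads and fragment bias; they called differential genes with Cuffdiff, which was not repeated here. Coordinates are those of the table (GRCm38), and 27 of the 40 genes had the same ones in GENCODE M21.

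Samples were grouped by their labels. All 9 libraries were fitted together with limma 3.58.1 (R 4.3.3, eBayes with trend) on log2(FPKM + 1), for the 11161 genes whose mean reached 1 FPKM, two-sided, with Benjamini-Hochberg adjustment and a threshold of 0.05. Fold changes are on that scale, which understates those of low genes. Ratios had exact permutation tests. The fit was tested on simulated data. Depth is an estimate: 74.1% of 4682 low values lay within 0.25 fragments of a whole number, against 50% by chance.

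The genes, roles and lists were chosen with earlier results of these data known. Genes described in full are Nfe2l2, Keap1, Nqo1, Srxn1, those that passed in any comparison, and in each role the most abundant and the one with the smallest p; further pathway genes are named where they passed, with Txnip, Hmox1 and Slc7a11 always. Other members are given so that all 40 are accounted for. Alternatives were other pseudocounts, filters, scalings, the variance trend, a replicate block, the 6 libraries compared alone, leaving out each library and, chosen after seeing the data, a loess correction for GC content and length.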

Additional observations from a re-analysis of the deposited data

How the results depend on the processing

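At 100 µg/ml against control, the number of the 37 genes past the test was 3, and it was 1 with only the 6 libraries compared, 5 with the GC and length correction, and 1 to 3 when each library was left out. Between the doses it was 2, and it was 1 without the variance trend, 0 with a replicate block, 0 with only the 6 libraries, 3 with the GC and length correction (Prdx6, Txnrd1 and Srxn1, without Sod2), 1 with that correction with replicate block, and 0 to 2 when each library was left out. For the further pathway genes at 100 µg/ml against control it was 4. It was 1 with only the 6 libraries, 9 with the GC and length correction, and 1 to 6 when each library was left out. Of all genes, 2.11% passed at 100 µg/ml against control, 8.09% with that correction and 4.83% without replicate 1 at 100 µg/ml. Between the doses these shares were 0.851%, 3.29% and 1.71%. For the other alternatives the share of all genes is not given. The counts at 10 µg/ml stayed at 0 in every alternative run. No median over the 37 genes moved by more than the spread between replicates of the treated group (100 µg/ml where the doses were compared). At 100 µg/ml that spread includes replicate 1, so it cannot judge the fit without that library. The medians in that fit were -0.08 against control and -0.07 between the doses. Over all genes tested they were 0.0006 and -0.0021.

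The log2 fold change of Nfe2l2 changed sign with quantile normalization (0.003552), with the GC and length correction (0.002464) and with that correction and a replicate block (0.002464), and ranged from -0.03388 to 0.02633 without 1 library. Prdx1 changed sign with quantile normalization (0.04282) and ranged from -0.1408 to 0.03081, and Pgd did so too (0.04557), from -0.08911 to 0.0379. Without 1 library Sod1 ranged from -0.2312 to 0.0104 and Gsto1 from -0.09887 to 0.1051. None of these genes passed the test, and the cause was not tested.

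Over all groups, a pairing of libraries by the shared replicate numbers was not evident. Of 9 pairs with the same number 1 had a correlation of deviations over 0.1 (-0.088 to 0.152), and of 18 with different numbers 2 did (-0.166 to 0.143). Between 100 µg/ml and control the same-number pairs were at 0.152, 0.0327 and 0.098, and the others ran from -0.166 to 0.105. Deviations within a group balance out by construction, so these correlations depend on each other and cannot decide whether libraries were paired. With the replicate block, Prdx6 and Sod2 passed at 100 µg/ml, 2 of 37, while Txnrd1 did not (adjusted p = 0.0622, limma). The share of all genes that passed with the block is not given, and 2.11% belongs to the fit without it. Between the doses the block ended the calls of Prdx6 and Sod2 (adjusted p = 0.0516 and 0.113, limma). Nqo1, Gsta4 and Mgst1 fell below the filter of 1 FPKM, so no test of a difference is given for them.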
